A study of Mus musculus with 24 samples.

Results

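The 9 genes described here are interferon-stimulated genes, namely Stat2, Irf7, Isg15, Usp18, Ifit1, Ifit3, Oasl2, Rsad2 and Bst2. They were picked out by symbol, from a list drawn up with earlier results of these data known, and all 9 had a row in each of the 3 deposited expression tables, out of 31053 genes in the hepatocyte table, 25876 in the cholangiocyte table and 20729 in the Smart-Seq table. All 24 libraries came from liver cells of wild-type adult BALB/c mice, with no transgene or edited allele in any group. Cholangiocyte organoids (Cho-Orgs) were grown from EpCAM+ bead-sorted cells in Matrigel and sequenced at P0, P5 and P10, with 3 libraries per passage. Their medium held R-spondin1, Noggin, Wnt3a, EGF, FGF10, HGF, forskolin, A83-01 and Y-27632. Hepatocyte organoids (Hep-Orgs) were grown from EpCAM-negative, Percoll-purified hepatocytes in a medium with CHIR99021, R-spondin1, EGF, FGF7, FGF10, HGF, A83-01 and Y-27632, supplemented with the Notch inhibitor DAPT and the glucocorticoid dexamethasone. They were sequenced at P1, P5 and P10 beside libraries labelled as primary hepatocytes (Pri-Hep), again with 3 libraries per group. The Smart-Seq experiment held P0 Hep-Orgs of 3 shapes, with a single library for the grape-like, the round-like and the intermediate shape, which were described for the hepatocyte medium before DAPT and dexamethasone were added. No interferon was listed in either medium, so the comparisons concern the level of these genes in culture without added ligand.

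Interferons are secreted proteins that warn cells of viral infection. Type I and type III interferons bind receptors coupled to the kinases JAK1 and TYK2, which phosphorylate STAT2. STAT2 and IRF9 are parts of ISGF3, a complex that enters the nucleus, binds the interferon-stimulated response element and switches on a broad antiviral programme. In the liver, both hepatocytes and cholangiocytes can mount this response.

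The interferon-stimulated response element holds 2 copies of GAAA, so the letters GAAANNGAAA were searched on both strands, with overlapping matches counted, in RefSeq windows from 250 bases before to 50 bases after each start (GRCm38.p6). Of the 9 genes, 8 had a window and 6 of these 8 held a match, against 1131 of all 32851 windows (3.44%). The 6 stretches are shown to describe these promoters. The genes were picked as interferon-stimulated genes, a class that ISGF3 switches on through this element. A high share among them is therefore not independent evidence. Each is printed 5′ to 3′ along the strand of its gene, with 20 bases on either side of the outermost matches, and the capitals mark the matched bases.
Isg15, chr4:156200855-156200916, minus strand: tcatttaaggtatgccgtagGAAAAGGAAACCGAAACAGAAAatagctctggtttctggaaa
Ifit1, chr19:34640765-34640833, plus strand: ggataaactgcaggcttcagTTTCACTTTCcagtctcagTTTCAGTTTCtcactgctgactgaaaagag
Ifit3, chr19:34583353-34583436, plus strand: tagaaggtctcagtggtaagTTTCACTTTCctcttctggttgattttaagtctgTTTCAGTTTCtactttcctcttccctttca
Stat2, chr10:128270256-128270305, plus strand: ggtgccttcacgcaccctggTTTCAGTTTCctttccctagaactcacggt
Rsad2, chr12:26456543-26456592, minus strand: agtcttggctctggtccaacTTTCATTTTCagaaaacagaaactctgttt
Bst2, chr8:71537567-71537622, minus strand: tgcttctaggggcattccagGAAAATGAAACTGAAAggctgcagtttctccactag
In Isg15, 3 overlapping matches formed a run of 22 bases that ended 56 bases before the start. Ifit1 and Ifit3, both on chromosome 19, each held 2 separate matches on the opposite strand, and Bst2 held 2 overlapping matches. Stat2 and Rsad2 held 1 match each. None of the printed stretches overlapped an annotated exon in GENCODE M21. The windows of Irf7 and Oasl2 held no match, which says only that these letters are not in that window. A match is a description of the sequence and was not tested as a binding site.

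Expression is given as FPKM, a fragment count divided by gene length and library depth, as computed by the authors. Differences between groups are on the log2(FPKM + 1) scale, which understates the change of genes near or below 1 FPKM, and they come from limma with Benjamini-Hochberg adjustment over all genes tested and a two-sided threshold of 0.05. All 9 genes passed the filter of at least 1 FPKM in at least 3 libraries in both bulk tables. The replicates are described in the methods as independent cell cultures and in the legends by animal. Depth was 14068906 to 27160365 fragments per library in the hepatocyte table, as recovered from the values. In the cholangiocyte table an approximate 37510000 to 39960000 was estimated. These are bulk samples, in which fewer cells of a type and less RNA per cell cannot be told apart.

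In Cho-Orgs, the interferon-stimulated genes fell with passage. From P0 to P10 all 9 passed the test and all were lower, by 2.44-fold for Stat2 to 38.1-fold for Usp18 in mean FPKM. In this comparison 31.3% of the 11593 genes tested were called lower and 41.0% higher. The median log2 difference was -2.52 over the 9 genes and 0.07 over all genes tested. From P0 to P5, 7 of 9 were called lower, against a background of 22.6% lower and 34.0% higher. From P5 to P10, 9 of 9 were called lower, against 30.5% lower and 31.0% higher. These 3 comparisons share libraries, so they are not separate evidence. The summed level of the 9 genes was 304 to 449 FPKM at P0, 173 to 237 at P5 and 85.7 to 89.6 at P10, and the 3 ranges did not overlap.

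Stat2 and Irf7 are the transcription factors of the group. Stat2 (ENSMUSG00000040033, chr10:128270559-128292849) encodes the STAT that is particular to type I and III signalling. Its level was 16.2, 16.2 and 14.1 FPKM at P0, 15.2, 12.5 and 15.2 FPKM at P5, and 6.74, 6.28 and 6.03 FPKM at P10. The P0 and P5 libraries overlapped and all P10 libraries were lower. The difference was -0.11 (95% CI -0.30 to 0.08, adjusted p = 0.287) from P0 to P5, and -1.17 ± 0.09 (SE, adjusted p = 1.24e-06) from P0 to P10. Irf7 (ENSMUSG00000025498, chr7:141262706-141266481) encodes the factor that amplifies interferon production. It was at 102, 88.8 and 73.3 FPKM at P0, 46.7, 33.2 and 53.3 FPKM at P5, and 9.641, 10.25 and 10.02 FPKM at P10. No library of one passage reached the range of another. The log2 difference was -0.98 ± 0.16 (SE, adjusted p = 0.000601) at P5 and -3.01 ± 0.16 (SE, adjusted p = 1.41e-07) at P10 against P0. Irf7 overlaps Phrf1 on the other strand, and whether the counting used strand is not given in the sources used here.

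Isg15 and Usp18 act on opposite sides of protein ISGylation. Isg15 (ENSMUSG00000035692, chr4:156199424-156200818) encodes a ubiquitin-like modifier that is attached to other proteins. It measured 53.7, 39.2 and 30.5 FPKM at P0, 18.3, 14.7 and 16.8 FPKM at P5, and 4.86, 5.01 and 4.48 FPKM at P10. The spread at P0 was wide, yet its lowest library lay above every P5 library. The log2 difference from P0 was -1.23 ± 0.17 (SE, adjusted p = 0.000188) at P5 and -2.83 ± 0.17 (SE, adjusted p = 2.6e-07) at P10. Usp18 (ENSMUSG00000030107, chr6:121245906-121270917) encodes the protease that removes ISG15 and that also blocks signalling at the type I receptor. Its levels were 15.8, 14.1 and 9.01 FPKM at P0, 3.84, 2.38 and 3.52 FPKM at P5, and 0.222, 0.407 and 0.392 FPKM at P10. The groups did not overlap, and the P10 libraries held an estimated 15, 27 and 26 fragments. The log2 difference from P0 was -1.70 ± 0.19 (SE, adjusted p = 5.6e-05) at P5 and -3.35 ± 0.19 (SE, adjusted p = 2.1e-07) at P10. No RefSeq window was given for Usp18, and it overlaps the noncoding gene Gm44148 on the other strand.

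Ifit1 and Ifit3 encode related tetratricopeptide proteins with antiviral roles. Ifit1 (ENSMUSG00000034459, chr19:34640871-34650009) was at 16.8, 8.17 and 9.17 FPKM at P0, 4.91, 4.19 and 5.09 FPKM at P5, and 0.676, 1.26 and 1.31 FPKM at P10. The first P0 library was well above the other P0 libraries, and the passages did not overlap. The log2 difference from P0 was -1.05 ± 0.22 (SE, adjusted p = 0.00296) at P5 and -2.52 ± 0.22 (SE, adjusted p = 4.63e-06) at P10. Ifit3 (ENSMUSG00000074896, chr19:34583531-34588731) was at 6.29, 2.98 and 2.25 FPKM at P0, 1.196, 0.627 and 0.536 FPKM at P5, and 0.0588, 0.0797 and 0.189 FPKM at P10. It was the lowest of the 9 genes at each passage, and its P10 libraries held an estimated 3.92, 5.22 and 12.4 fragments. The log2 difference from P0 was -1.37 ± 0.26 (SE, adjusted p = 0.00145) at P5 and -2.04 ± 0.26 (SE, adjusted p = 5.81e-05) at P10. From P5 to P10 it was -0.67 ± 0.26 (SE, adjusted p = 0.0456), a call that was lost when any single P5 or P10 library was left out (adjusted p 0.0551 to 0.155). Ifit3 has a near-identical copy, Ifit3b, between which the authors' counting could split reads, so its level is uncertain.

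Oasl2, Rsad2 and Bst2 are antiviral effectors. Oasl2 (ENSMUSG00000029561, chr5:114896936-114912234) belongs to the family of oligoadenylate synthetases, which make the activator of RNase L. It was at 27.6, 23.2 and 17.9 FPKM at P0, 17.5, 10.4 and 16.8 FPKM at P5, and 2.31, 2.05 and 2.03 FPKM at P10. The lowest P0 library lay only just above the highest P5 library, whereas P10 stood far below. Accordingly the log2 difference was -0.60 ± 0.19 (SE, adjusted p = 0.0221) at P5 and -2.91 ± 0.19 (SE, adjusted p = 5.19e-07) at P10 against P0. The P5 call of Oasl2 was lost without the first P0 library (adjusted p = 0.0649) and without the second P5 library (adjusted p = 0.0637). Rsad2 (ENSMUSG00000020641, chr12:26442746-26456452) encodes viperin, an enzyme that makes a chain-terminating nucleotide. It measured 9.23, 3.73 and 4.31 FPKM at P0, 5.80, 7.05 and 5.99 FPKM at P5, and 1.41, 1.53 and 2.00 FPKM at P10. The P5 libraries lay inside the range of P0, with a log2 difference of 0.19 (95% CI -0.35 to 0.73, adjusted p = 0.523). Without the first P0 library, Rsad2 was called higher at P5, with a log2 difference of 0.53 (adjusted p = 0.00282). At P10 its log2 difference from P0 was -1.27 ± 0.24 (SE, adjusted p = 0.000924). Bst2 (ENSMUSG00000046718, chr8:71534255-71537456) encodes tetherin, a membrane protein that holds budding virus particles on the cell. It was the most abundant member, at 202, 177 and 144 FPKM at P0, 114, 88.1 and 120 FPKM at P5, and 60.3, 58.9 and 63.1 FPKM at P10. The passages did not overlap, and its log2 difference from P0 was -0.69 ± 0.13 (SE, adjusted p = 0.00166) at P5 and -1.49 ± 0.13 (SE, adjusted p = 4.88e-06) at P10.

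**Figure D1:**
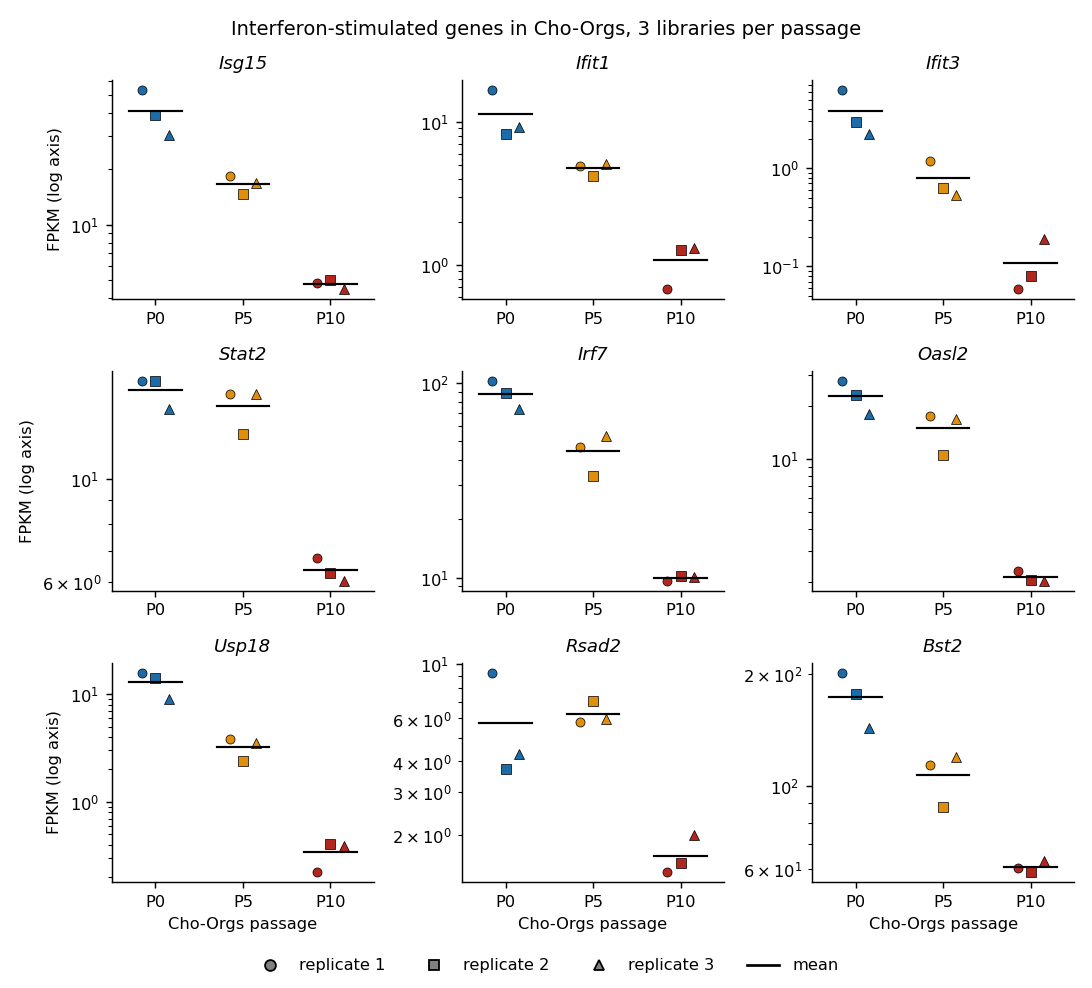
FPKM of the 9 interferon-stimulated genes in each of the 9 Cho-Orgs libraries, on a log axis, with points for single libraries and lines for group means of P0, P5 and P10. All P10 libraries lie below all P0 libraries for each gene, and for Stat2 and Rsad2 the P0 and P5 points overlap.

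The groups did not overlap, with the later passage lower, for 7 of 9 genes from P0 to P5, where 24.8% of all genes tested had this pattern. The same was true of 9 of 9 from P0 to P10 and 9 of 9 from P5 to P10, where 32.6% and 36.8% of all genes did. From P5 to P10 the log2 differences of the 9 genes ran from -2.32 ± 0.19 for Oasl2 to -0.67 ± 0.26 for Ifit3 (SE). This order depends on the pseudocount, since the mean FPKM of Ifit3 fell 7.196-fold, that of Oasl2 7.01-fold, that of Usp18 9.55-fold and that of Bst2 1.77-fold. The pair that overlapped from P0 to P5 fell over this later interval, with log2 differences of -1.05 ± 0.09 for Stat2 (SE, adjusted p = 6.28e-06) and -1.46 ± 0.24 for Rsad2 (SE, adjusted p = 0.000555). Usp18 fell over both intervals, with log2 differences of -1.70 ± 0.19 and -1.65 ± 0.19 (SE). The 3 P0 libraries differed among themselves in a shared way. The first P0 library was the highest of its group for all 9 genes, though for Stat2 it was level with the second. Without that library all 9 remained called lower at P10 against P0. From P0 to P5, 40% of all calls were lower as fitted. This share became 52.8% with median-ratio size factors and 33.9% after rescaling to TPM, and the same count of 7 members was lower under each.

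**Figure D2:**
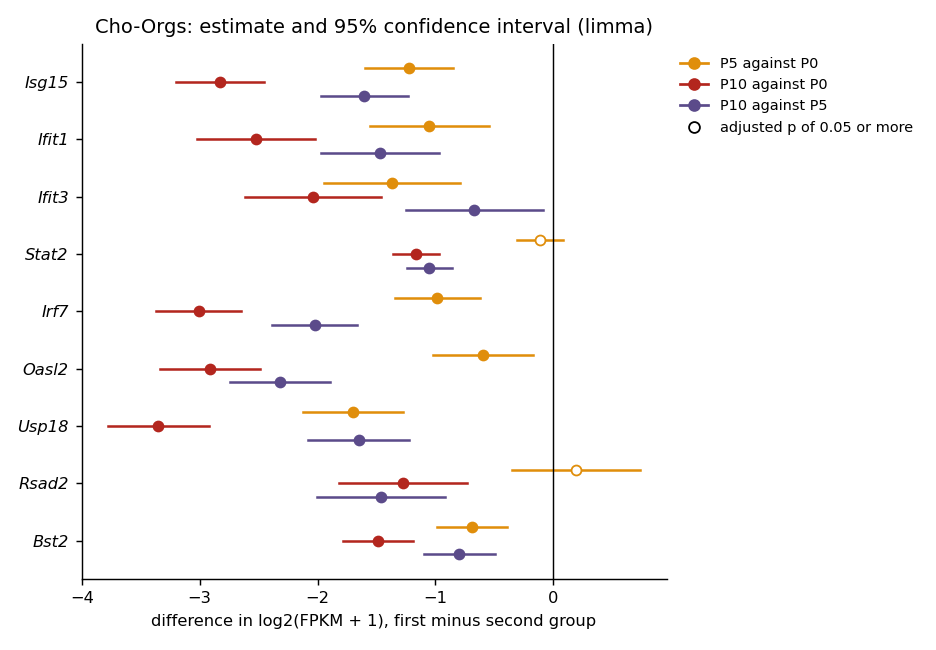
Log2 difference in FPKM + 1 between Cho-Orgs passages for the 9 genes, with points for the limma estimates and bars for their 95% confidence intervals. The interval of Stat2 and that of Rsad2 include 0 from P0 to P5, and all intervals lie below 0 from P0 to P10.

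The order of the levels changed in its middle ranks. At P0 it ran Bst2, Irf7, Isg15, Oasl2, Stat2, Usp18, Ifit1, Rsad2 and Ifit3, from a mean of 174 FPKM to 3.84 FPKM. From Stat2 downward each neighbour overlapped the next in its libraries. At P10 the order was Bst2, Irf7, Stat2, Isg15, Oasl2, Rsad2, Ifit1, Usp18 and Ifit3, and no neighbours overlapped. Of the 9 genes, 5 thus changed place between P0 and P10, with Usp18 moving from 6th to 8th, Stat2 from 5th to 3rd, Rsad2 from 8th to 6th, Isg15 from 3rd to 4th and Oasl2 from 4th to 5th.

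Markers of other cells moved with passage as well. Hepatocyte markers summed to 6476 to 7245 FPKM at P0, 226 to 276 at P5 and 90.3 to 96.4 at P10, and 8 of the 9 tested were lower at P10 than at P0. Albumin (Alb), the main plasma protein made by hepatocytes, was at a mean of 4994 FPKM at P0 and 0.584 FPKM at P10. Cholangiocyte markers, which define the labelled cell type, summed to 5099 to 6522 FPKM at P0 and 3345 to 3375 FPKM at P10. Of the 8, 4 were lower and 3 higher at P10 than at P0, against 31.3% and 41.0% of all genes tested. The keratin Krt19 was at 1045 FPKM at P0 and 1402 FPKM at P10, and the adhesion gene Epcam at 451 FPKM and 259 FPKM. Proliferation genes summed to 221 to 330 FPKM at P0, 117 to 127 at P5 and 14.5 to 16.3 at P10, and 10 of 10 were lower at P10 than at P0. The part of these in the fall of the interferon-stimulated genes was not tested.

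Immune and stromal cells are also known sources of these transcripts. Of 11 Kupffer cell and macrophage markers, 3 were at 0 in all Cho-Orgs libraries, the Kupffer cell marker Clec4f among them. The list summed to 43.5 to 48.9 FPKM at P0, 72.1 to 77.3 at P5 and 10.1 to 10.5 at P10. Most of this was the lysosomal gene Cd68, and the macrophage receptor gene Adgre1 averaged 0.416 FPKM at P0. Of the 2 markers tested, Cd68 was called higher at P5 than at P0 and the other lower. Both were called lower at P10 than at P0. The median log2 difference of these 2 markers was -1.26 from P0 to P5 and -2.68 from P0 to P10, so the other marker fell strongly. Over all genes tested, 22.6% were called lower and 34.0% higher from P0 to P5, and 31.3% and 41.0% from P0 to P10. Of 15 lymphocyte and dendritic cell markers, 7 were at 0 throughout, including Siglech, which marks the plasmacytoid dendritic cells that can also carry BST2. The pan-leukocyte gene Ptprc averaged 0.0388 FPKM at P0 and 0 at P5 and P10. The list summed to 1502 to 1916 FPKM at P0, 832 to 913 at P5 and 370 to 406 at P10, nearly all from Ly6d, which epithelial cells also express. Of the 2 genes tested on this list, Cd3e was called higher at P5 than at P0 and the other lower. At P10 both were called lower than at P5. Stellate cell markers summed to 60.8 to 75.7 FPKM at P0, 7.54 to 8.37 at P5 and 0.174 to 0.239 at P10, most of it Reln at 69.2 FPKM at P0. Endothelial markers summed to at most 0.686 FPKM in any Cho-Orgs library. The part of the lists that moved was not tested.

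Upstream of these genes, interferon transcripts were scarce in Cho-Orgs. Of 21 ligand genes on the list, 9 had a row and none passed the filter, and they summed to 0.0306 to 0.154 FPKM at P0, 0.182 to 1.05 at P5 and 0.0395 to 0.0622 at P10. The P5 range lay above both others. Ifne, an epithelial type I interferon, averaged 0.211 FPKM at P5.

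Receptor genes moved in both directions from P0 to P10. Of 6 tested, 3 were higher and 2 lower, with a median log2 difference of 0.15. Among all genes tested in this comparison, 41.0% were called higher and 31.3% lower. Ifnar1, a chain of the type I receptor, was at 9.96 ± 1.08 FPKM at P0 and 10.9 ± 0.664 FPKM at P10 (SD, n = 3; limma adjusted p = 0.165). Its partner Ifnar2 was lower by a small amount, with a log2 difference of -0.24 ± 0.08 (SE, adjusted p = 0.0267). Ifnlr1, the chain particular to type III interferons, was higher, at 3.71 ± 0.839 FPKM at P0 and 10.2 ± 0.149 FPKM at P10 (SD, n = 3; limma adjusted p = 5.61e-06). Its partner Il10rb was higher by 0.18 ± 0.06 on the log2 scale (SE, adjusted p = 0.0303). For the type II receptor, Ifngr1 was higher by 1.00 ± 0.07 (SE, adjusted p = 1.33e-06), whereas Ifngr2 was lower, with a log2 difference of -0.87 ± 0.08 (SE, adjusted p = 4.48e-06).

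Of 4 genes for the kinases and for IRF9, 3 were lower and 1 higher at P10 than at P0, with a median log2 difference of -0.38. The shares over all genes tested were 31.3% lower and 41.0% higher. Irf9, the DNA-binding subunit of ISGF3, was at 15.5 ± 1.38 FPKM at P0 and 7.70 ± 0.726 FPKM at P10 (SD, n = 3; limma adjusted p = 3.3e-06). The kinase genes differed in direction, with a log2 difference of -0.54 ± 0.05 for Jak1 and 0.51 ± 0.06 for Tyk2 (SE). Among 5 negative regulators, 3 were lower and 0 higher, and Socs3, a feedback inhibitor of JAK kinases, had a log2 difference of -1.15 ± 0.14 (SE, adjusted p = 5.29e-05).

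Of 13 nucleic acid sensors and adaptors tested, 7 were lower and 5 higher from P0 to P10. Among all genes tested, 31.3% were lower and 41.0% higher. The RNA sensors were among the lower. Rigi was at 12.2 ± 1.51 FPKM at P0 and 2.52 ± 0.202 FPKM at P10, Ifih1, which encodes MDA5, at 10.8 ± 0.276 and 4.44 ± 0.204 FPKM, and their regulator Dhx58 at 10.1 ± 1.24 and 1.73 ± 0.19 FPKM (SD, n = 3). All 3 are themselves inducible by interferon. Irf3, the factor that starts the first wave of interferon, was higher by 0.45 ± 0.06 (log2, SE; adjusted p = 0.00014), as was the kinase gene Ikbke by 0.63 ± 0.07 (log2, SE; adjusted p = 2.13e-05). Tbk1, a kinase that acts on IRF3, was at 15.4 ± 1.36 FPKM at P0 and 14.2 ± 0.625 FPKM at P10 (SD, n = 3; limma adjusted p = 0.191).

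A wider list of interferon-stimulated genes held 33 tested genes besides the 9. At P10 against P0, 31 of 33 were lower and 0 higher, with a median log2 difference of -1.64. Among all genes tested, 31.3% were lower and 41.0% higher in this comparison. At P5 against P0, 19 were lower and 2 higher, with a median of -0.51, against 22.6% lower and 34.0% higher of all genes. At P10 against P5, 32 were lower and 0 higher, with a median of -0.96, against 30.5% lower and 31.0% higher. The largest differences from P0 to P10 on the log2(FPKM + 1) scale, where falls to below 1 FPKM count for less than by ratio, were those of Ifi27l2a at -3.78, Ifi44 at -3.37, Phf11d at -2.51 and Rtp4 at -2.46. The most abundant was Ifitm3, which encodes a membrane protein that blocks viral entry. It was at 864 ± 138 FPKM at P0, 917 ± 105 at P5 and 592 ± 12.4 at P10 (SD, n = 3), and its log2 difference from P0 to P10 was -0.53 ± 0.12 (SE, adjusted p = 0.00226). The exceptions, Isg20 and Tor3a, were called higher at P5 than at P0 and lay at 4.21 and 16.7 FPKM at P0 and 4.14 and 16.6 FPKM at P10. They are named because they were the exceptions, after their values were seen. Of the genes on this list with a RefSeq window, 10 of 29 (34.5%) held the GAAANNGAAA letters, against 326 of 9218 genes tested in Cho-Orgs (3.54%). The letters were not particular to this list. They were held by 8 of 15 interferon-gamma targets (53.3%), 11 of 20 interferon ligands (55%) and 3 of 11 nucleic acid sensors and adaptors (27.3%). The counts were 1 of 5 for negative regulators, 0 of 5 for receptors and 0 of 4 for the kinases with Irf9.

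Targets of interferon-gamma, the type II interferon, moved in the same direction for the most part. Of 15 tested, 13 were lower and 2 higher at P10 than at P0, with a median log2 difference of -1.32. The shares among all genes tested were 31.3% lower and 41.0% higher. Iigp1, an immunity-related GTPase, was at 11.9 ± 2.16 FPKM at P0, 0.242 ± 0.0946 at P5 and 0.0559 ± 0.0118 at P10 (SD, n = 3). Its fall was thus complete for the most part by P5, with a log2 difference of -3.37 ± 0.11 from P0 (SE, adjusted p = 2.2e-08) and of -0.23 from P5 to P10 (adjusted p = 0.0975). The immunoproteasome genes Psmb8 and Psmb9 had log2 differences of -2.76 and -2.17 from P0 to P10. The 2 higher genes were Irf1, at 10.6 ± 0.425 FPKM at P0 and 14.8 ± 0.788 FPKM at P10 (SD, n = 3), and Gbp4, which was below 1 FPKM at both. Gbp4 was also called higher at P5 than at P0.

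**Figure D3:**
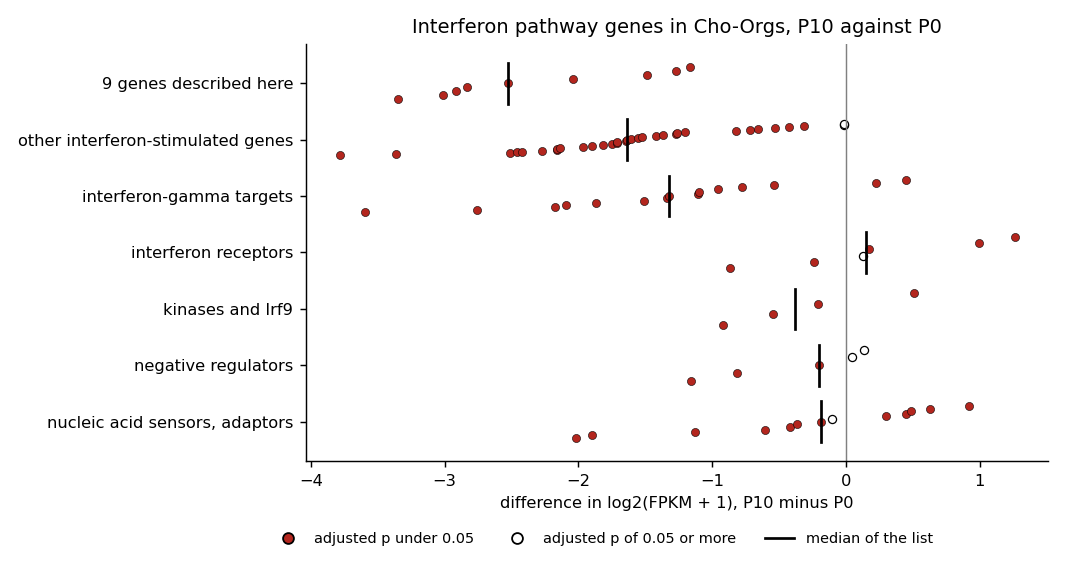
Log2 difference in FPKM + 1 from Cho-Orgs P0 to P10 for each tested gene of the interferon lists, with 1 point per gene and colour marking the call. The 9 interferon-stimulated genes and the wider list of them lie below 0, with 2 of the wider list next to it, whereas receptors and sensors lie on both sides.

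The genes whose level across the 9 Cho-Orgs libraries was most like the mean of the 9 interferon-stimulated genes were Clic6 (Pearson r = 0.997), Rab5c (0.997), Tomm6 (0.995), Calr (0.995), Ncaph (0.995), Bard1 (0.994), Gpx8 (0.994) and D8Ertd738e (0.994). The 9 libraries fall into 3 passages, which also differ in cell markers, so any gene that falls steadily with passage gives a high r. Clic6 fell from 37.7 FPKM at P0 to 16.8 at P5 and 3.52 at P10. None of these 8 genes is on the interferon lists.

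In the hepatocyte table the 9 genes hardly varied. Before these values, the labels had to be set against the markers. The libraries labelled Pri-Hep held Alb at 112 FPKM and Krt19 at 237 FPKM, and their sum of cholangiocyte markers was 3852 to 3947 FPKM against 635 to 667 FPKM for hepatocyte markers. The Hep-Orgs libraries were alike, at 3798 to 4018 FPKM and 647 to 696 FPKM. The markers therefore go against the label of a hepatocyte, and the groups are named here by label only. For pairs of libraries, the variance over that of fragment counting had a median of 2.22 within groups (12 pairs) and 2.54 between groups (54 pairs). No 2 libraries were identical.

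None of the 9 genes was called in any of 7 comparisons by limma, nor by limma-voom on the recovered fragments. In 10986 genes tested, 0.00910% were called at P1 against Pri-Hep, 0.00910% at P5 against Pri-Hep, 0% at P10 against Pri-Hep, 0% at P5 against P1, 0% at P10 against P1, 0.0273% at P10 against P5 and 0% for all Hep-Orgs against Pri-Hep. Before adjustment, 7 of the 63 tests of the 9 genes had a p under 0.05. By comparison these were 0 genes at P1 against Pri-Hep (8.29% of all genes), 0 at P5 against Pri-Hep (10.8%), 2 at P10 against Pri-Hep (6.64%), 0 at P5 against P1 (3.97%), 1 at P10 against P1 (8.98%), 3 at P10 against P5 (11.5%) and 1 for all Hep-Orgs against Pri-Hep (8.79%). The lowest adjusted p was 0.259, for Ifit3 at P10 against P5.

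Isg15 accounted for 4 of the 7. It was at 19.5, 19.1 and 19.7 FPKM in the libraries labelled Pri-Hep, 18.2, 19.3 and 18.1 FPKM at P1, 19.98, 17.2 and 19.1 FPKM at P5, and 17.8, 16.2 and 16.8 FPKM at P10. The P10 libraries lay below those of Pri-Hep and P1 and overlapped P5. The log2 difference of P10 from Pri-Hep was -0.19 (95% CI -0.29 to -0.08, adjusted p = 0.569). Ifit3 accounted for 2, at 2.56, 2.87 and 2.04 FPKM in Pri-Hep, 3.28, 2.63 and 2.68 FPKM at P1, 2.10, 2.33 and 2.25 FPKM at P5, and 2.53, 4.32 and 3.18 FPKM at P10. All P10 libraries lay above all P5 libraries, with a log2 difference of 0.41 (95% CI 0.13 to 0.69, adjusted p = 0.259). Groups were also apart for Usp18 at P1 against Pri-Hep and Stat2 at P10 against Pri-Hep. The same held for Ifit3 and Bst2 at P5 against P1. The share of all genes with groups apart is not given here, so such separation is only described. Ifit3 also had the widest spread over the 12 libraries, a coefficient of variation of 23.2% where fragment counting alone gives 10.9%.

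The other genes had coefficients of variation of at most 10.2% over the 12 libraries. Stat2 was at 11.98 to 13.25 FPKM, Irf7 at 31.7 to 35.3 FPKM and Bst2 at 113 to 124 FPKM, with coefficients of variation of 2.68%, 2.62% and 3.41%, where fragment counting alone gives 2.71%, 2.09% and 2.26%. The spread of Stat2 was thus no larger than counting error. Ifit1 ranged from 13.92 to 15.98 FPKM, Oasl2 from 16.1 to 18.6 FPKM, Usp18 from 3.18 to 3.97 FPKM and Rsad2 from 2.96 to 4.22 FPKM. Their coefficients of variation were 5.08%, 4.08%, 6.18% and 10.2%, where counting alone gives 3.75%, 2.23%, 7.48% and 6.17%. For all Hep-Orgs against Pri-Hep, the 95% CI of the log2 difference was -0.02 to 0.08 for Irf7 and -0.09 to 0.03 for Bst2. It was widest for Ifit3, at -0.11 to 0.34. The summed level of the 9 genes was 217 to 230 FPKM in every library. In the libraries labelled Pri-Hep the order was Bst2, Irf7, Isg15, Oasl2, Ifit1, Stat2, Usp18, Rsad2 and Ifit3, and among neighbours only Usp18 and Rsad2 overlapped. The interferon ligands summed to at most 0.455 FPKM in any library, and 16 of 21 were at 0 throughout. None of the 32 other interferon-stimulated genes tested was called in any of the 7 comparisons.

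**Figure D4:**
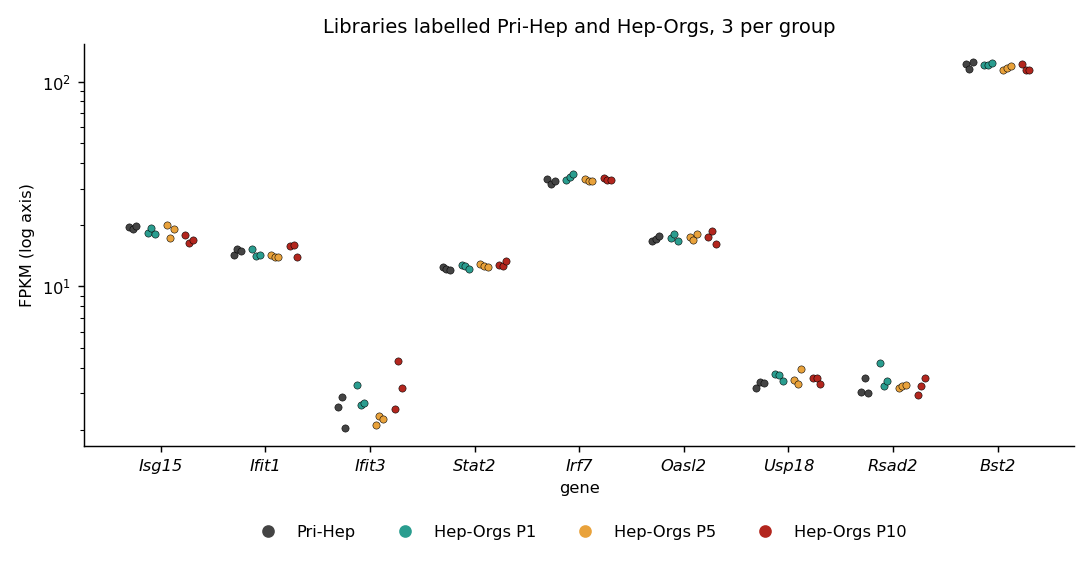
FPKM of the 9 genes in each of the 12 libraries of the hepatocyte table, on a log axis. Points are single libraries, coloured by group (Pri-Hep and Hep-Orgs at P1, P5 and P10). The genes other than Ifit3 run nearly level across the 4 groups, and Ifit3 shows the widest scatter, from 2.04 to 4.32 FPKM, with a mean of 2.22 at P5 and 3.34 at P10.

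The Smart-Seq libraries compared the 3 shapes of P0 Hep-Orgs. With 1 library per shape there is no replicate check and no test, and the intervals given cover counting error only. Amplified cDNA was sequenced, at an estimated 40080000 to 40410000 fragments per library. A ratio of at least 1.5 on FPKM + 1 was reached by 2 of 9 genes between grape-like and round-like, where 41.2% of 12595 genes did. It was reached by 3 of 9 between intermediate and round-like (19.1%) and by 4 of 9 between grape-like and intermediate (32.2%). The median log2 ratio over all genes was -0.13, -0.12 and 0.03 in these comparisons.

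Ifit3 varied most between the shapes. Its FPKM was 30.7 for grape-like, 15.1 for intermediate and 7.12 for round-like organoids, so the grape-like level was 4.32 times the round-like one (95% CI 3.92 to 4.76). Usp18 had the same order, at 19.6, 12.1 and 10.9 FPKM, with a grape-like to round-like ratio of 1.80 (95% CI 1.65 to 1.97). Stat2 too ran from 27.0 to 25.3 and 18.4 FPKM, a ratio of 1.47 (95% CI 1.404 to 1.535) that stayed short of the fold used. Irf7 and Bst2 were instead lowest in the intermediate library. Irf7 was at 136, 74.8 and 139 FPKM in the same order, and the ratio of intermediate to round-like was 0.539 (95% CI 0.526 to 0.552). Bst2 was at 287, 204 and 370 FPKM, with a ratio of 0.551 (95% CI 0.535 to 0.568). Rsad2 shared the low point of the intermediate library, at 23.9, 12.6 and 18.1 FPKM. Isg15 ran the other way, at 67.1, 76.6 and 89.8 FPKM. Ifit1 was nearly level at 14.9, 15.6 and 14.1 FPKM, with a grape-like to round-like ratio of 1.05 (95% CI 0.983 to 1.13). Oasl2 was at 29.2, 22.6 and 27.4 FPKM. The 9 genes thus had no common order among the shapes.

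**Figure D5:**
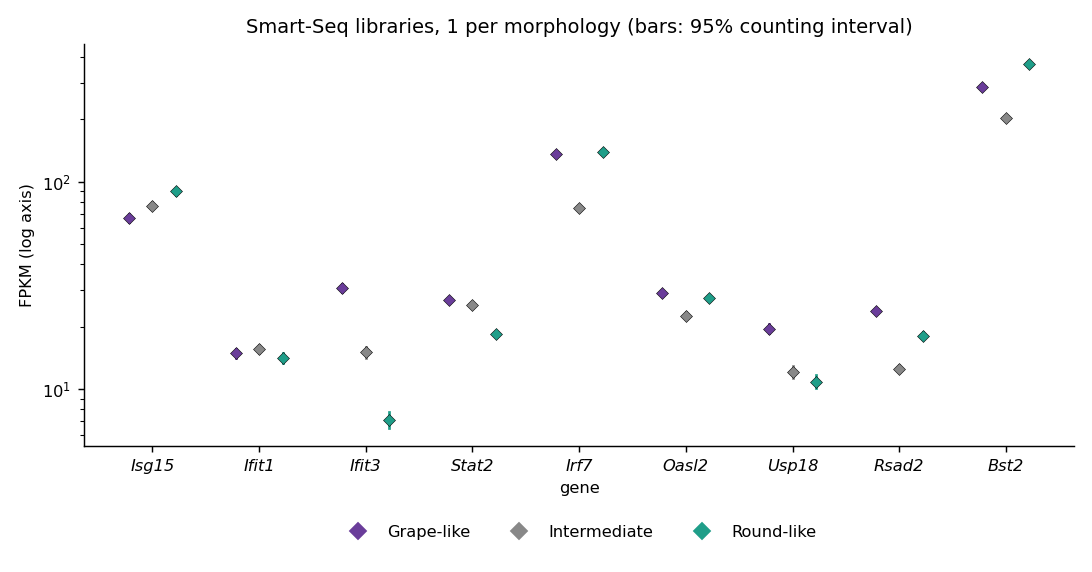
FPKM of the 9 genes in the 3 Smart-Seq libraries (grape-like, intermediate, round-like), on a log axis, with 1 point per library and bars for 95% counting intervals. Ifit3, Usp18 and Stat2 decline from grape-like to round-like, Isg15 rises, and Irf7, Bst2, Rsad2 and Oasl2 are lowest in the intermediate library.

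Markers of several other cell types were present in these libraries. Kupffer cell and macrophage markers summed to 10250 FPKM for grape-like, 2956 for intermediate and 1631 for round-like organoids, with all 11 above 0 in at least 1 of the 3 and Clec4f at 79.3, 13.4 and 10.3 FPKM. Stellate cell markers followed the same order at 1362, 352 and 303 FPKM, as did endothelial markers at 130, 53.2 and 23.7 FPKM. Lymphocyte and dendritic cell markers summed to 279, 672 and 799 FPKM, of which Ly6d made up 226, 658 and 789 FPKM. Hepatocyte markers summed to 5101, 8546 and 1286 FPKM, cholangiocyte markers to 877, 3454 and 2834 FPKM, and proliferation genes to 234, 217 and 432 FPKM. The part of each in the levels of Ifit3, Usp18 and Stat2 was not tested.

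Set side by side, the order of levels had features in common across the tables, though each table was normalized on its own and the culture conditions differ. Bst2 was the highest of the 9 genes in every group. Irf7 was next in every group apart from the intermediate Smart-Seq library, where Isg15 was at 76.6 FPKM and Irf7 at 74.8 FPKM. Ifit3 was the lowest in Cho-Orgs and in the libraries labelled Pri-Hep, but Ifit1 was lowest in the grape-like library. The summed level of the 9 genes was 635 FPKM for grape-like, 459 for intermediate and 695 for round-like organoids. No difference between the tables was tested.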

How the data were processed

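The 24 libraries were measured by poly(A) RNA sequencing (21) or by Smart-Seq of amplified cDNA (3). The authors deposited FPKM in 3 tables, each normalized on its own. The submitters' processing notes name mm10, featureCounts 2.0.3 and edgeR 3.40.2, without saying which step each served. The aligner is not given in the sources used here. The authors tested their counts with edgeR. Here FPKM were tested, with limma-voom on recovered fragments as an alternative in the hepatocyte table.

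Samples were grouped by the labels. Since the deposited unit is FPKM, log2(FPKM + 1) was fitted with limma 3.58.1 (R 4.3.3), all groups of a table together, with eBayes trend. Genes reaching 1 FPKM in 3 or more libraries were tested, two-sided, with Benjamini-Hochberg adjustment and a threshold of 0.05. Tables and figures were made with Python 3.11.15, pandas 2.3.3, numpy 2.4.6 and matplotlib 3.10.9. In the hepatocyte table whole fragments were recovered for 100% of the values checked. In the other tables the depth was estimated from the steps of low values and is approximate. Counting intervals hold counting error alone, not the spread between cultures.

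The 9 genes and all lists were chosen with earlier results of these data known. A gene of the lists is not reported here and was left out of the counts of its list. Genes outside the 9 were named by a rule that takes the highest expressed and most changed genes of each interferon list and the 8 genes most like the 9, and that allows any gene of the cell type lists. Isg20 and Tor3a were named after their values were seen. Same-numbered libraries did not deviate together, with a median correlation of -0.00626 over 9 pairs in Cho-Orgs and -0.00155 over 18 pairs in the hepatocyte table, so the numbers were not taken as pairs. The models were also run on simulated data, and the outcome is not given here. The spread simulated within groups was smaller than that of most of the 9 genes at Cho-Orgs P0. That run therefore gives no support to the Cho-Orgs calls. Alternatives were a pseudocount of 0.1, no filter, a mean FPKM of at least 5, eBayes without trend, median-ratio size factors, TPM, fits of only the groups compared, a replicate block, limma-voom and leaving out each library. Promoter windows are RefSeq's on GRCm38.p6, and gene positions are on GRCm38.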

Additional observations from a re-analysis of the deposited data

Results flagged for a closer look

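The mean level of Ifit3 moved in opposite directions from P5 to P10 in the libraries labelled Hep-Orgs and in Cho-Orgs. The ratio of mean FPKM at P10 to that at P5 was 1.504 in Hep-Orgs, where every P10 library was above every P5 library, and 0.139 in Cho-Orgs, where every P10 library was below. The difference between the cultures was not tested, since the 2 tables were normalized separately. In Hep-Orgs the change did not pass the test (limma adjusted p = 0.259), and in Cho-Orgs the adjusted p was 0.0456. The Cho-Orgs call was lost when any single P5 or P10 library was left out (limma adjusted p 0.0551 to 0.155).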

How the results depend on the processing

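In Cho-Orgs, 440 of 453 values of single genes under an alternative kept their direction and their side of the threshold, and from P0 to P10 all 151 did. Leaving out 1 library at a time gave 9 of 9 genes lower from P0 to P10, 6 to 7 called from P0 to P5 and 8 to 9 from P5 to P10. Without the first P0 library, the 7 genes called from P0 to P5 were 6 lower and 1 higher, which was Rsad2. The replicate block gave 7, 9 and 9 genes from P0 to P5, P0 to P10 and P5 to P10, and 0 in each comparison of the hepatocyte table, and changed no call. With no filter, Ifit3 from P5 to P10 (adjusted p = 0.116) and Oasl2 from P0 to P5 (adjusted p = 0.0638) lost their calls, and Oasl2 also lost its call when only P0 and P5 were fitted (adjusted p = 0.0522). A mean FPKM of at least 5 left 7 of the 9 genes tested, and it lowered the counts of all genes called lower to 1693 from P0 to P5, 2357 from P0 to P10 and 2316 from P5 to P10, from 2621, 3634 and 3533, with fewer genes tested. From P0 to P10, calls were lower in 43.3% as fitted, 50.4% with median-ratio size factors and 41.2% with TPM. The log2 difference of Rsad2 from P0 to P5 was -0.022 to 0.534 when 1 library was left out, and that of Ifit1 for all Hep-Orgs against Pri-Hep was -0.0410 to 0.00248, so that both changed sign; the cause was not tested. In the hepatocyte table no setting called any of the 9 genes. In the Smart-Seq table, median-ratio size factors added Stat2 to the genes past 1.5-fold between grape-like and round-like (3 genes) and between intermediate and round-like (4 genes), and between grape-like and intermediate the same 4 genes were past it. Fewer than 30 fragments limit Usp18 and Ifit3 at P10.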
